A study of Mus musculus with 74 samples.

Results

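Of 74 single pro-epicardial cells, 34 held at least 5 counts of the LIM-homeobox gene Lhx9. The 34 were selected on the measured Lhx9 count and divided at 5 counts of Aldh1a1, a retinaldehyde dehydrogenase, into 17 Aldh1a1-positive and 17 Aldh1a1-negative cells. All cells came from the pro-epicardium of C57BL/6 mouse embryos at embryonic day 9.5 that carried Tbx18Cre and the membrane reporter mTmG, and the study's labels put them in a single group. Cre under Tbx18 limits the reporter to cells with a history of Tbx18 activity, so the cells describe that lineage and not the whole organ. The labels name no embryo, litter or treatment for a cell. The 74 cells were therefore read as 1 biological sample, and no test was made between cells. Full-length cDNA from each cell was sequenced, and levels are given as CPM, the count divided by the cell's total and scaled alike in all cells.

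The pro-epicardium is a transient outgrowth of mesothelium beside the septum transversum from which the epicardium forms. Enzymes of the Aldh1a family oxidise retinaldehyde to retinoic acid, which binds receptors of the Rar and Rxr families and is cleared by enzymes of the Cyp26 family. In the mouse embryo Aldh1a2 is the best known of these enzymes in the pro-epicardium and epicardium, while Lhx9 is a transcription factor of embryonic mesothelia and gonads.

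Aldh1a1 (ENSMUSG00000053279, chromosome 19, 20492715 to 20643465, plus strand, GRCm38) lies beside a close copy, Aldh1a7 (chromosome 19, 20692953 to 20727562, minus strand). Both have a coding sequence of 1506 bases, of which 1380 (91.6%) are identical at the same position. The first 90 coding bases of each are shown from the GENCODE M21 transcripts because reads of the pair can be confused. Capitals mark the 5 bases at which they differ.
Aldh1a1: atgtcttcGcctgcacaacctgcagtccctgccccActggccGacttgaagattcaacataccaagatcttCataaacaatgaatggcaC
Aldh1a7: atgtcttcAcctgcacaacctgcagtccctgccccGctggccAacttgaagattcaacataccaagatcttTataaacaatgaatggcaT
Of the 2493 distinct 31-base words in the Aldh1a1 transcripts, 281 (11.3%) also occur in Aldh1a7, so most of the sequence tells the pair apart but a division of shared reads is uncertain. Aldh1a7 had 5 or more counts in 3 Aldh1a1-positive cells and in 0 Aldh1a1-negative cells, where 0 of 17 cells allows a share of cells with counts of up to 17.6% (3 of 17, as for other shares of 0). It also reached 5 counts in 2 of the 40 cells under 5 counts of Lhx9. These were P1-22 and P1-24, with 70.4 and 36.8 CPM of Aldh1a7 and 0 counts of Aldh1a1.

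Both genes that define the division are described without being findings. Aldh1a1 ranged from 7.61 to 203 CPM with a median of 50.9 in the Aldh1a1-positive cells, and 16 of the 17 Aldh1a1-negative cells had 0 counts of it. The lowest count among the positive cells was 6, and the highest among the negative cells was 4. That negative cell was at 16.9 CPM, which 14 of the 17 Aldh1a1-positive cells exceeded, so the groups overlap in CPM. Lhx9 was at 217 ± 86.1 CPM in Aldh1a1-positive cells and 171 ± 126 CPM in Aldh1a1-negative cells (mean ± SD over 17 cells each, as below). Its ranges were 94.9 to 420 and 11.3 to 412 CPM, and 5 Aldh1a1-negative cells lay below every Aldh1a1-positive cell. No cell stood near the Lhx9 threshold, since the lowest count inside was 15 and the highest outside was 2. Aldh1a1 reached 5 counts in 17 of the 34 Lhx9-positive cells (50.0%, exact 95% interval 32.4% to 67.6%) and in 3 of the other 40 (7.50%, interval 1.57% to 20.4%). These intervals cover the counting of cells only, and reads without molecular identifiers are not independent molecules.

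**Figure D1:**
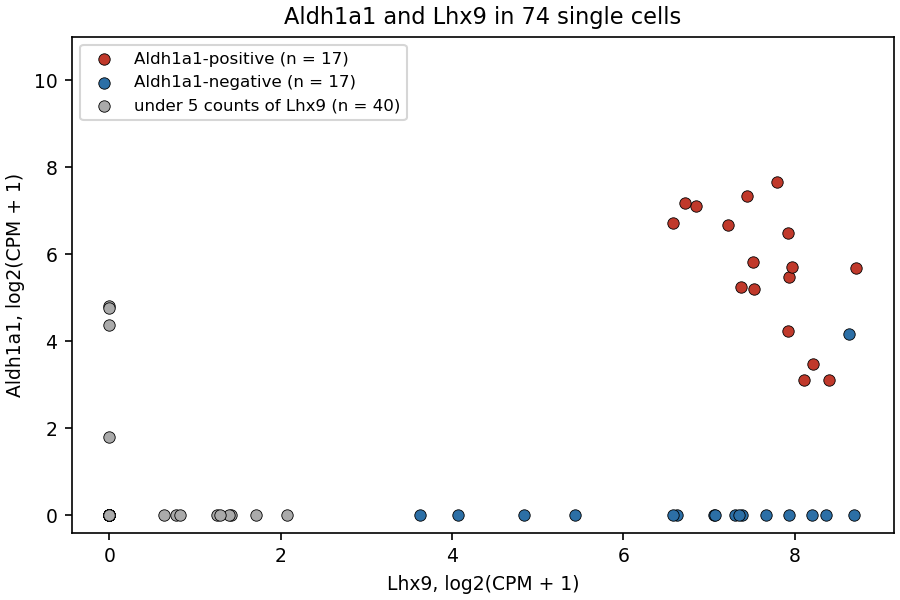
Aldh1a1 against Lhx9 in each of 74 cells, both as log2(CPM + 1). The 17 Aldh1a1-positive cells are red, the 17 Aldh1a1-negative cells blue and the 40 cells under 5 counts of Lhx9 grey; 3 grey cells hold 5 or more counts of Aldh1a1.

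Within the Aldh1a1-positive cells the level of Aldh1a1 varied with depth. The 6 shallowest, with totals of up to 452857 counts, held 55.2 to 203 CPM (median 119.5), and the 11 deeper cells held 7.61 to 161 CPM (median 37.1). Over the 17 cells its Spearman correlation with the total was -0.60. The total is also the denominator of the CPM, and a threshold set in counts admits low CPM values only in deeper cells, so the rule itself fixes part of this relation.

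Depth, detected genes and mitochondrial share overlapped between the groups. Totals were 216177 to 2618538 counts (median 788465) in Aldh1a1-positive cells and 234474 to 1801939 (median 832884) in Aldh1a1-negative cells, against 312362 to 2046584 in the 40 remaining cells. Genes with at least 5 counts numbered 6163 to 9946 (median 7945) in Aldh1a1-positive cells and 6240 to 8827 (median 8016) in Aldh1a1-negative cells. Mitochondrially encoded genes took a median of 1.90% and 1.99% of counts in the same order.

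The name mesothelial was checked against a list of 26 mesothelial and simple epithelial genes. The Aldh1a1-positive cells had 13 to 21 of them at 5 or more counts (median 18), and the Aldh1a1-negative cells 10 to 19 (median 16). The uroplakin Upk3b, a mesothelial marker, reached 5 counts in 17 of 17 Aldh1a1-positive and 13 of 17 Aldh1a1-negative cells. The remaining 4 Aldh1a1-negative cells, without it, had Lhx9 at 11.3 to 97.7 CPM and are not described here as mesothelial. In 3 of these 4 the mean level of an 18-gene septum transversum list was 5.01 to 6.25 on the log2(CPM + 1) scale, against at most 3.36 in any Aldh1a1-positive cell. The other one held the sarcomeric actin Actc1 at 1866 CPM and the matrix gene Tgfbi at 913 CPM. The ratio among Upk3b-positive cells (17 against 13), without these 4 cells, is given below wherever a 2-fold call was lost and for some other genes. The 13 still include cell P1-67, with Upk3b at 223 CPM. Its mean level was 3.27 on the mesothelial list and 4.18 on the septum transversum list.

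**Figure D2:**
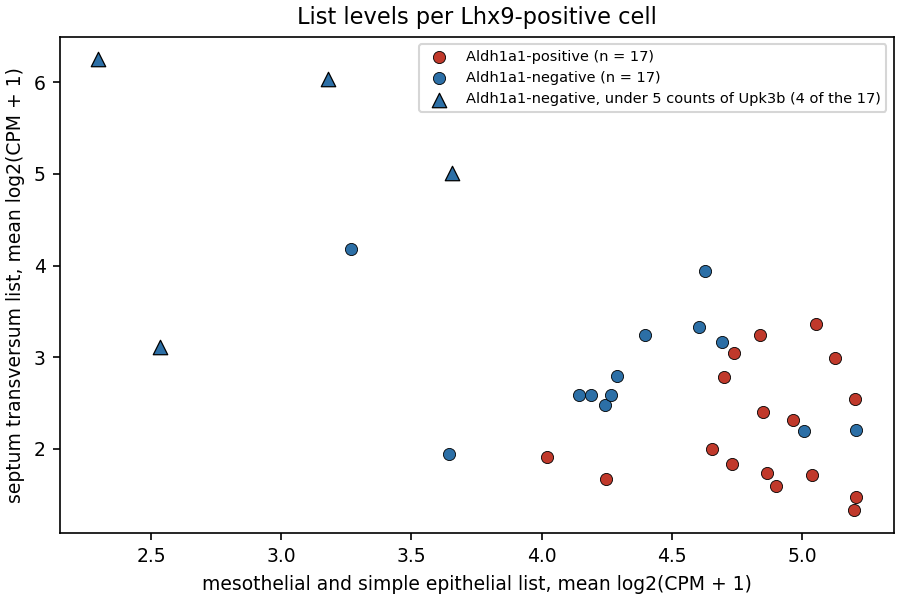
Mean log2(CPM + 1) of the 26 mesothelial and simple epithelial genes (x axis) against that of 18 septum transversum genes (y axis) for each Lhx9-positive cell. Triangles are the 4 Aldh1a1-negative cells under 5 counts of Upk3b. A different set of 4 Aldh1a1-negative cells lies both above every Aldh1a1-positive cell on the y axis and below every one on the x axis. That set includes cell P1-67, which has Upk3b at 223 CPM, and leaves out the triangle of cell P1-3.

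Over the 34 cells, 8663 genes averaged 10 CPM or more and reached 5 counts in at least 10% of them. A gene is called higher or lower where the log2 ratio of the group means, each plus 1 CPM, was at least 1 or at most -1 in Aldh1a1-positive over Aldh1a1-negative cells. The rule sets a size and tests nothing. By it 162 genes (1.87%) were higher and 237 (2.74%) lower, or 4.61% in either direction, and the median ratio of all 8663 was -0.02. When the cell with the highest value in each group was left out, 146 of the 162 and 199 of the 237 kept their call. Among the 8663 genes, which leave out the genes of the rule, 0 had groups that did not overlap in either direction. How many genes would pass under another division of these cells was not tested, so the counts are a description of these cells. The shares over all 8663 genes are the reference for every list count below.

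The uroplakins Upk1b and Upk3b and the integrin gene Itga4 were higher in Aldh1a1-positive cells. Of the 26 list members, 19 had enough signal, and 3 were higher and 0 lower, against 1.87% and 2.74% of all genes considered. Of the 19 ratios 16 were above 0, against 47.8% of all genes considered. The list's median log2 ratio was 0.59, or 0.50 over the same members among Upk3b-positive cells. The list was chosen with earlier results of these same cells known. It is therefore not independent evidence of its direction. Upk1b, a uroplakin of the apical membrane, ranged from 53.7 to 711 CPM (median 281) in Aldh1a1-positive cells and from 0 to 664 CPM (median 51.9) in Aldh1a1-negative cells. It reached 5 counts in 17 of 17 (100%, interval 80.5% to 100%) and 11 of 17 cells (64.7%, interval 38.3% to 85.8%). Every Aldh1a1-positive cell was above the Aldh1a1-negative median, and 1 Aldh1a1-negative cell was above the Aldh1a1-positive median. Its log2 ratio was 1.62, and 1.24 among Upk3b-positive cells. The call was lost at 0.97 when cells were thinned to 350000 counts and regrouped (11 against 17 cells), and at 0.74 at or above the median Lhx9 level (11 against 6 cells). Thinning left out cells under 350000 counts. Of the 17 thinned cells grouped as Aldh1a1-negative, 14 were so in the main division and the others were Aldh1a1-positive there. Thinned values, here and below, are therefore those of a changed division as well as of a lower depth.

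Itga4, the integrin alpha4 subunit that binds Vcam1 and fibronectin and is needed for the epicardium to adhere, was at 30.2 to 614 CPM (median 337) in Aldh1a1-positive cells. In Aldh1a1-negative cells it was at 0 to 413 CPM (median 82.9). Only 1 Aldh1a1-negative cell was above the Aldh1a1-positive median, and the log2 ratio was 1.35, or 1.08 among Upk3b-positive cells. It was 0.47 in thinned cells, 0.21 at or above the median Lhx9 level and 0.85 with Aldh1a1 at 10 or more counts. Upk3b was at 288 ± 167 CPM in Aldh1a1-positive cells and 140 ± 112 CPM in Aldh1a1-negative cells, a log2 ratio of 1.03. Among the cells that have it the ratio was 0.65, but leaving out the 4 cells without it, all in 1 group, lowers the ratio by construction. The call was lost under 6 of 14 alternatives, among them Aldh1a1 at 1 or more counts (0.98) and the median Lhx9 level or above (0.78).

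The most abundant mesothelial genes had smaller ratios. Podxl, a sialomucin of the apical surface, was at 919 ± 369 CPM in Aldh1a1-positive and 599 ± 368 CPM in Aldh1a1-negative cells (log2 ratio 0.62, or 0.34 among Upk3b-positive cells). Ezrin (Ezr), which links membrane to actin, averaged 777 ± 352 CPM in Aldh1a1-positive and 514 ± 346 CPM in Aldh1a1-negative cells (0.59, or 0.31 among Upk3b-positive cells). The binding protein Igfbp5 had a ratio of 0.37, the keratins Krt18 and Krt8 had 0.86 and 0.26, and the leucine-rich membrane protein Lrrn4 had 0.99. For all of these the ranges overlapped. The negative ratios in the list were those of P-cadherin (Cdh3, -0.51), desmoplakin (Dsp, -0.40, but 0.66 among Upk3b-positive cells) and Aldh1a3 (-0.32).

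**Figure D3:**
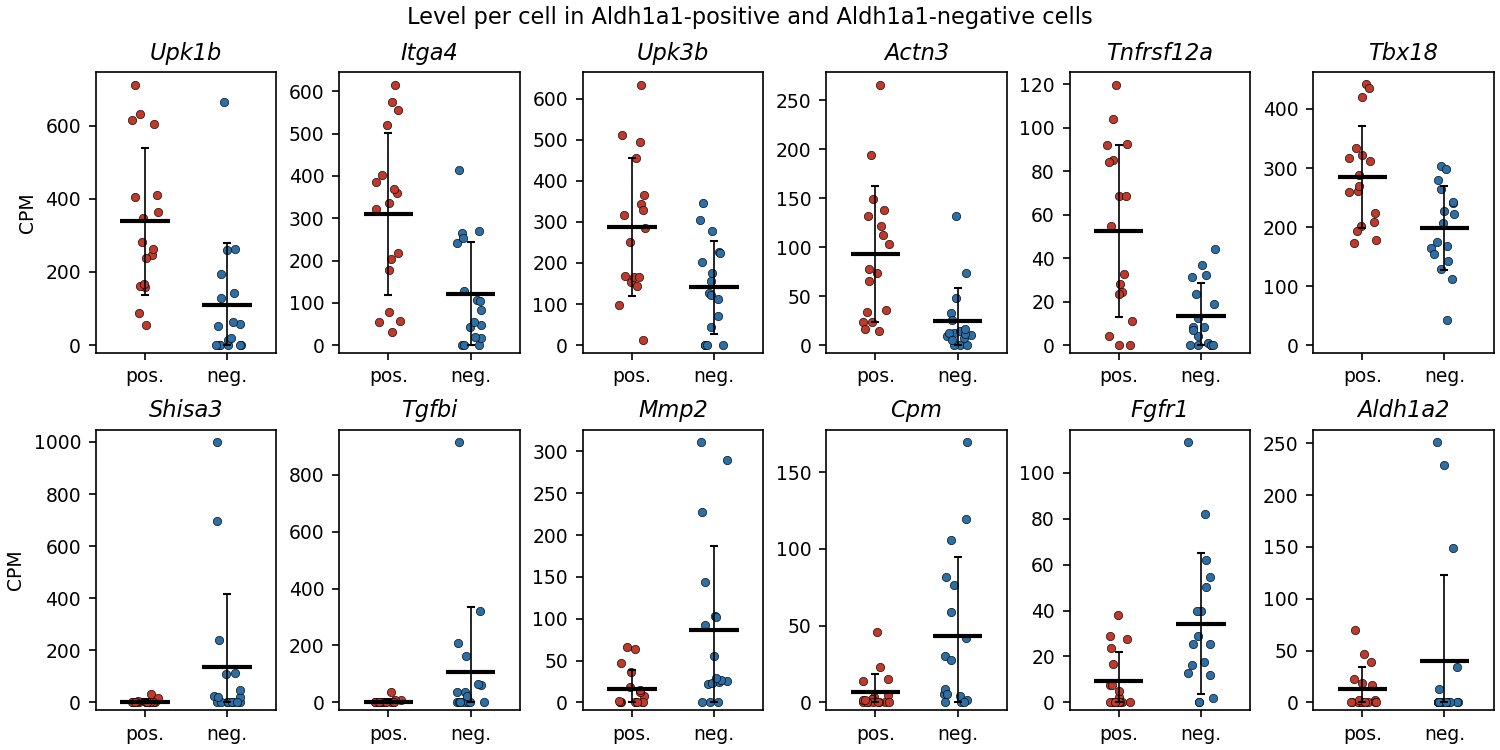
CPM per cell of 12 genes in Aldh1a1-positive cells (pos., red) and Aldh1a1-negative cells (neg., blue), 17 cells each. The horizontal line is the mean and the bars are 1 SD, with the lower bar stopped at 0; the groups overlap for every gene shown, and Shisa3 and Tgfbi are high in few Aldh1a1-negative cells.

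Transcription factors of the pro-epicardium differed by less than 2-fold, with Gata5 and Lhx2 as exceptions. Of 20 regulators, 15 had enough signal, and 0 were higher and 2 lower, against 1.87% and 2.74% of all genes considered. Their median ratio was 0.27. Tbx18, the T-box factor that drives the Cre, was at 174 to 442 CPM (median 269) in Aldh1a1-positive cells and 43.3 to 303 CPM (median 207) in Aldh1a1-negative cells. Its ratio was 0.52, and 7 Aldh1a1-positive cells lay above every Aldh1a1-negative cell. The mesothelial zinc-finger factor Wt1 was at 187 ± 69.9 CPM in Aldh1a1-positive and 123 ± 65.5 CPM in Aldh1a1-negative cells (0.60, or 0.33 among Upk3b-positive cells). Tcf21, needed for the cardiac fibroblasts that derive from epicardium, was at 360 ± 189 CPM in Aldh1a1-positive and 220 ± 161 CPM in Aldh1a1-negative cells (0.71).

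Scx and Sema3d, which mark pro-epicardial compartments, had ratios of 0.17 and 0.47, and the mesothelial factor Bnc1 had 0.27. Sox9 (0.49), Tbx20 (0.53), Hand2 (0.29), Tbx5 (0.21), Gata6 (-0.04), Gata4 (-0.29) and Bnc2 (-0.45) also overlapped between groups. Gata5, a cardiac and mesodermal GATA factor, was at 64.6 ± 81.2 CPM in Aldh1a1-positive and 145 ± 150 CPM in Aldh1a1-negative cells. Its ratio was -1.15, but -0.97 among Upk3b-positive cells and 0.37 at or above the median Lhx9 level. Lhx2, a LIM-homeobox relative of Lhx9, reached 5 counts in 2 Aldh1a1-positive and 7 Aldh1a1-negative cells, at 2.97 ± 5.85 and 39.8 ± 90.5 CPM (-3.36, or -1.15 among Upk3b-positive cells). These 9 are the cells that hold both LIM factors. Isl1, Nkx2-5 and Osr1 had too little signal, and the gonadal factors Emx2 and Nr5a1 had 0 counts in all 34 cells, which allows a share of cells with counts of up to 8.82%.

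Other enzymes that make retinoic acid had no common direction. Of 16 genes for making and clearing it, 7 had enough signal, with a median ratio of -0.32. Of these 1 was higher and 1 lower, against 1.87% and 2.74% of all genes considered. Aldh1a2 ranged from 0 to 69.9 CPM (median 0) in Aldh1a1-positive cells and from 0 to 251 CPM (median 0) in Aldh1a1-negative cells. It reached 5 counts in 7 of 17 Aldh1a1-positive cells (41.2%, interval 18.4% to 67.1%) and 4 of 17 Aldh1a1-negative cells (23.5%, interval 6.81% to 49.9%). Its means were 12.8 ± 20.8 and 39.7 ± 83.7 CPM, a log2 ratio of -1.56 (-1.24 among Upk3b-positive cells), so the group with more positive cells had the lower mean. On the mean of log2(CPM + 1) the difference was 0.088, with the opposite sign, and at or above the median Lhx9 level the ratio was 2.60. The mean of the Aldh1a1-negative group rests on 3 cells that lay above every Aldh1a1-positive cell.

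Aldh1a3, the remaining retinaldehyde dehydrogenase of the family, reached 5 counts in 8 Aldh1a1-positive and 9 Aldh1a1-negative cells, at 13.4 ± 16.7 and 17.0 ± 19.5 CPM (-0.32). In the Aldh1a1-positive group 4 cells had both Aldh1a2 and Aldh1a3, 3 had Aldh1a2 alone, 4 had Aldh1a3 alone and 6 had neither. In the Aldh1a1-negative group these numbers were 2, 2, 7 and 6. Cyp1b1, a cytochrome P450 that can also oxidise retinoids, was called higher at 16.1 ± 35.5 CPM against 5.06 ± 7.37 CPM (1.50). It reached 5 counts in only 3 Aldh1a1-positive cells, against 6 Aldh1a1-negative cells, so the direction of the mean is that of a few cells. On the mean of log2(CPM + 1) its difference was -0.14.

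The retinol and retinaldehyde reductases Rdh11, Rdh14 and Dhrs4 had ratios of -0.53, 0.25 and -0.52, and the alcohol dehydrogenase Adh5 had 0.14. The retinol-oxidising enzyme Rdh10 and the reductase Dhrs3 were under the filter, with 4 and 2 Aldh1a1-positive cells and 2 and 1 Aldh1a1-negative cells at 5 counts. Dhrs9 and Adh1 reached 5 counts in 0 cells of either group. Cyp26a1, Adh4 and Adh7 had 0 counts in all 34 cells. Cyp26b1 and Cyp26c1, which degrade retinoic acid, had 0 counts in every Aldh1a1-positive cell and counts in 1 Aldh1a1-negative cell each.

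Retinoid receptors and carriers were mostly below 2-fold. Of 16, 10 had enough signal, and 0 were higher and 1 was lower, against 1.87% and 2.74% of all genes considered. The median ratio was -0.26. Of the 10 ratios 1 was above 0, that of the receptor Rxrb at 0.14, against 47.8% of all genes considered. The fatty acid and retinoic acid binding protein Fabp5 was at 335 ± 153 CPM in Aldh1a1-positive and 492 ± 215 CPM in Aldh1a1-negative cells, a ratio of -0.55. It lay above the highest Aldh1a1-positive cell in 7 Aldh1a1-negative cells. The receptors Rara and Rarb had ratios of -0.21 and -0.75, the co-repressor Ncor1 -0.09, the co-regulator Nrip1 -0.17, and the carrier Crabp2 -0.32.

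The plasma retinol carrier Rbp4 was the lower member (-1.24), but 1 Aldh1a1-negative cell at 312 CPM set this value. Rbp4 reached 5 counts in 6 Aldh1a1-positive and 3 Aldh1a1-negative cells, and the ratio was 1.13 without the highest cell of each group. Among members under the filter, the receptor Rxra reached 5 counts in 4 Aldh1a1-positive and 9 Aldh1a1-negative cells, and the carrier Crabp1 in 2 and 8. Rarg, Rxrg, Stra6 and Lrat reached it in at most 4 Aldh1a1-positive and 2 Aldh1a1-negative cells.

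Genes that retinoic acid is known to induce gave 7 of 17 with enough signal and a median ratio of -0.14. Of these 0 were higher and 1 lower, against 1.87% and 2.74% of all genes considered. Hoxb2, a patterning factor of the Hox family, was at 26.2 ± 18.3 CPM in Aldh1a1-positive and 60.0 ± 65.3 CPM in Aldh1a1-negative cells (-1.16). Among Upk3b-positive cells its ratio was -0.56. The Hox cofactors Meis1 and Meis2 had ratios of -0.14 and 0.09, the orphan receptors Nr2f1 and Nr2f2 -0.68 (0.26 among Upk3b-positive cells) and -0.08, the zinc-finger factor Tshz1 -0.74 and the transglutaminase Tgm2 0.35. Stra8, Hoxa2, Hoxb1 and Hoxb3 to Hoxb5 were under the filter. Of these Hoxa2 had 0 counts in every Aldh1a1-positive cell and 5 or more in 4 Aldh1a1-negative cells.

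Aldehyde dehydrogenases outside the retinoid enzymes gave 8 of 16 with enough signal, with a median ratio of 0.22. Of these 0 were higher and 1 lower, against 1.87% and 2.74% of all genes considered. The lower one was Aldh4a1, a mitochondrial enzyme of proline breakdown, at 6.40 ± 12.5 CPM in Aldh1a1-positive and 14.8 ± 17.1 CPM in Aldh1a1-negative cells (-1.09). Aldh2, the mitochondrial acetaldehyde dehydrogenase, was at 0 to 105 CPM (median 25.9) in Aldh1a1-positive and 0 to 133 CPM (median 50.4) in Aldh1a1-negative cells. Only 2 Aldh1a1-positive cells were above the Aldh1a1-negative median, and the ratio was -0.93. Aldh9a1 and Aldh7a1, the most abundant members, had ratios of 0.45 and 0.21, and Aldh3a2, Aldh6a1, Aldh16a1 and Aldh18a1 had 0.68, 0.24, 0.24 and -0.18. Aldh1b1, Aldh1l2, Aldh3a1, Aldh3b1, Aldh5a1 and Aldh8a1 were under the filter, and Aldh1l1 had 0 counts in all 34 cells. Of 22 glutathione and oxidative stress genes, 20 had enough signal and 0 passed 2-fold in either direction (median -0.06). The most abundant were the peroxidases Prdx1 (0.24), Gpx3 (-0.56) and Gpx1 (-0.05).

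Outside these pathways, 15 genes led the higher side and 15 the lower side. They are the largest ratios among genes with at least 20 CPM and 5 counts in at least 50% of the cells of the higher group, still at 2-fold without that group's highest cell. The share of cells of the higher group therefore could not fall under 50% for these genes, and the intervals do not allow for this choice. The largest was that of Cd44, the hyaluronan receptor, at 0 to 120 CPM (median 7.72) in Aldh1a1-positive and 0 to 8.41 CPM (median 0) in Aldh1a1-negative cells. It reached 5 counts in 9 of 17 (52.9%, interval 27.8% to 77.0%) and 2 of 17 cells (11.8%, interval 1.46% to 36.4%), with a log2 ratio of 3.76, but 0.18 in thinned cells. It was also found in 13 of the 40 cells under 5 counts of Lhx9.

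Of the 15 leading higher genes, only Actn3, the alpha-actinin of fast muscle fibres, reached 5 counts in every Aldh1a1-positive cell. It was at 14.2 to 266 CPM (median 77.5) in Aldh1a1-positive cells and 0 to 132 CPM (median 12.6) in Aldh1a1-negative cells, and at 5.40 CPM on average in the 40 remaining cells. All Aldh1a1-positive cells were above the Aldh1a1-negative median and 1 Aldh1a1-negative cell was above the Aldh1a1-positive median (log2 ratio 1.90). Tnfrsf12a, the receptor of the cytokine TWEAK, was at 0 to 119.5 CPM (median 54.9) in Aldh1a1-positive and 0 to 44.4 CPM (median 8.14) in Aldh1a1-negative cells. It was above every Aldh1a1-negative cell in 9 Aldh1a1-positive cells (1.89). D2hgdh, the mitochondrial enzyme that oxidises D-2-hydroxyglutarate, reached 5 counts in 13 Aldh1a1-positive and 4 Aldh1a1-negative cells (2.59). It also reached them in 26 of the 40 remaining cells, with a mean of 30.1 CPM there against 27.8 CPM in Aldh1a1-positive cells.

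Edn2, an endothelin ligand, reached 5 counts in 9 Aldh1a1-positive and 2 Aldh1a1-negative cells (2.47) and had 0 counts in all 40 cells under 5 counts of Lhx9. Mbp, myelin basic protein, had a ratio of 2.61 and reached 5 counts in 11 and 4 cells in the same order. Col4a1, a basement membrane collagen, had 2.20, and the tight-junction scaffold Patj had 2.06. Col4a1 averaged 32.3 CPM in Aldh1a1-positive cells and 33.0 CPM in the 40 cells under 5 counts of Lhx9. The Iroquois factor Irx3 had 2.22, but -0.82 in thinned cells. Dnah7b, an axonemal dynein heavy chain (1.91), the adenylyl cyclase Adcy1 (2.03), the microtubule linker Hook2 (1.89), the deubiquitinase Usp15 (1.86), the histone demethylase Kdm1b (1.84) and Cystm1 (1.97) complete the group. All 15 stayed at 2-fold or more among Upk3b-positive cells, and 12 under each alternative that gave a value, with Cd44, Irx3 and Cystm1 as exceptions.

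On the lower side, Shisa3, which holds back Wnt and FGF receptors in other systems, was at 0 to 30.6 CPM (median 0) in Aldh1a1-positive cells. In Aldh1a1-negative cells it was at 0 to 998 CPM (median 20.5). It reached 5 counts in 3 of 17 (17.6%, interval 3.80% to 43.4%) and 9 of 17 cells (52.9%, interval 27.8% to 77.0%), and 6 Aldh1a1-negative cells were above every Aldh1a1-positive cell. Its log2 ratio of -4.99 was -2.68 among Upk3b-positive cells, since the 2 highest values, 998 and 697 CPM, were in cells without Upk3b. Tgfbi, a matrix protein induced by TGF-beta, reached 5 counts in 3 and 9 cells in the same order, at 2.99 ± 8.76 and 108 ± 227 CPM. Its ratio was -4.77, and -3.30 among Upk3b-positive cells.

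Mmp2, a gelatinase, was at 0 to 66.0 CPM (median 1.91) in Aldh1a1-positive and 0 to 311 CPM (median 28.8) in Aldh1a1-negative cells, with 7 Aldh1a1-negative cells above every Aldh1a1-positive cell. Its ratio was -2.39, but -1.25 among Upk3b-positive cells and -0.92 at or above the median Lhx9 level. Cpm, carboxypeptidase M, had a ratio of -2.56, with -2.41 among Upk3b-positive cells and -1.41 at or above the median Lhx9 level, and was below the Aldh1a1-negative median in all but 1 Aldh1a1-positive cell. Lars2, a mitochondrial leucyl-tRNA synthetase, reached 5 counts in 2 Aldh1a1-positive and 9 Aldh1a1-negative cells (-2.99). The kinase Snrk reached 5 counts in 4 and 13 cells in the same order (-2.00).

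Other lower genes were Rab3il1, an activator of Rab GTPases (-2.75), the syntrophin Sntg2 (-2.15), the adaptor Dok4 (-2.01), Fam69b (-2.00), the interferon-induced membrane protein Ifitm1 (-1.96), the membrane-contact tether Esyt1 (-1.85) and laminin alpha1 (Lama1, -1.85). Hand1, a basic helix-loop-helix factor (-2.01), and the matrix protein tenascin C (Tnc, -1.98, but 2.70 at or above the median Lhx9 level) also belong to the septum transversum list. Among Upk3b-positive cells 13 of the 15 stayed at 2-fold. The ratios of Dok4 and Hand1 were -0.90 and -0.72 there, and Hand1 is under the filter in those cells. Of 60 named genes at 2-fold, 19 had a value in and kept their call under all 14 alternatives that changed any cell or call. These include Actn3, Tnfrsf12a, D2hgdh, Edn2, Mbp, Tgfbi, Cpm, Lars2 and Snrk. Leaving out the filter cannot move the ratio of a gene already considered. The leading genes were also chosen to stay at 2-fold without the highest cell of their higher group. Part of this tally, and of that for the leading higher genes, was therefore fixed in advance.

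**Figure D4:**
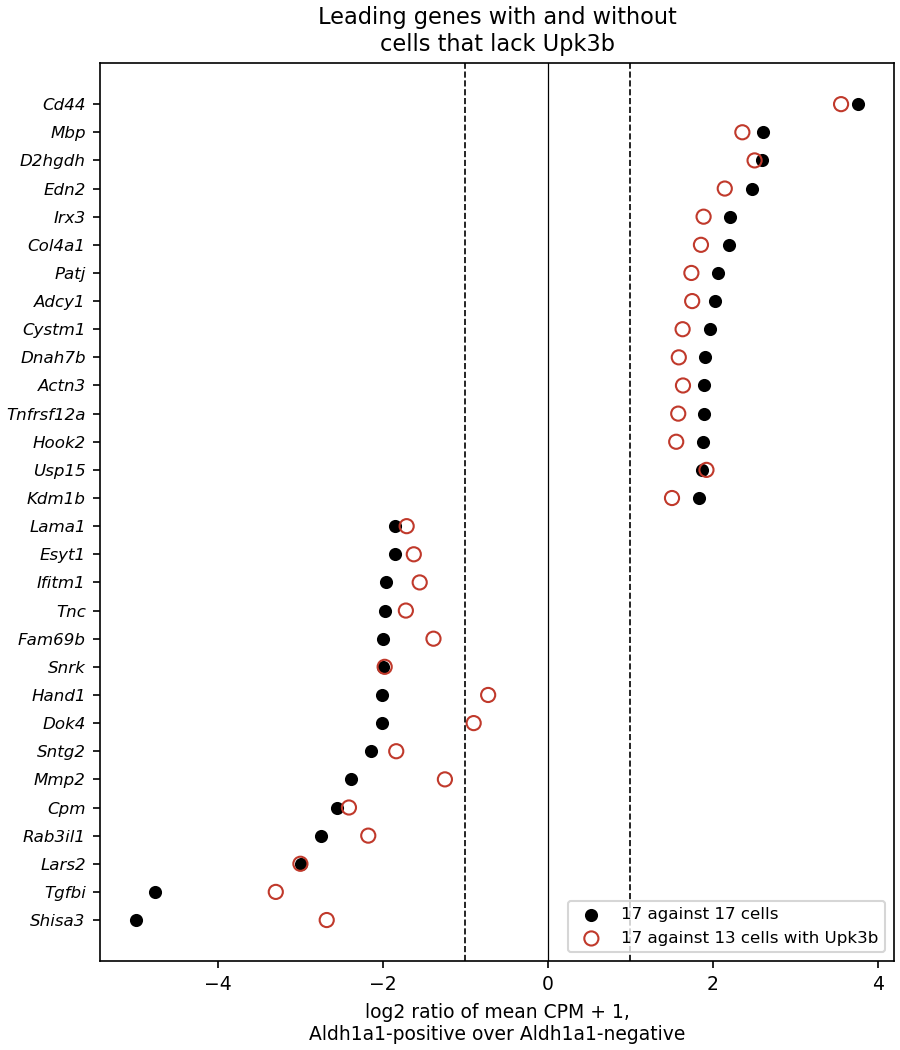
Log2 ratio of mean CPM + 1, Aldh1a1-positive over Aldh1a1-negative, for the 15 leading genes on each side. Black points use 17 against 17 cells and open red circles the 17 against 13 cells with Upk3b; dashed lines mark 2-fold, and Dok4 and Hand1 move inside them.

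The septum transversum list gave the lowest median. Of 18 genes, 15 had enough signal, and 0 were higher and 10 lower, against 1.87% and 2.74% of all genes considered. Only Pdgfra had a ratio above 0, at 0.32, against 47.8% of all genes considered. The median was -1.98, against -0.02 over all genes. Among Upk3b-positive cells it was -1.05 over the same 15 genes, and -0.51 over the 10 that pass the filter there. The list was drawn up with clusters of these same cells known, so it is not independent evidence of its direction. The summed CPM of the list was 252 to 1333 (median 547) in Aldh1a1-positive and 324 to 3509 (median 934) in Aldh1a1-negative cells, and 5 Aldh1a1-negative cells had a mean list level above every Aldh1a1-positive cell. Besides the genes above, the forkhead factor Foxf1 (-3.71), Tmem119 (-3.53), the selenium-binding protein Selenbp1 (-1.71) and the ligand Bmp4 (-1.05) were lower. Foxf1 reached 5 counts in 1 Aldh1a1-positive and 3 Aldh1a1-negative cells and Tmem119 in 1 and 4, so few cells carry these values. The most abundant members, Wnt2, Alcam and Pdgfra, had ratios of -0.38, -0.50 and 0.32, and Alcam had 0.17 among Upk3b-positive cells. Of the 10 lower genes 5 pass the filter in Upk3b-positive cells, and 4 of these (Shisa3, Tgfbi, Mmp2 and Tnc) were still at 2-fold, while Bmp4 was at -0.82. Lhx2, Foxf1, Hand1, Tmem119 and Selenbp1 average less than 10 CPM there.

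A set of 9 genes had led the Lhx9-high cells in an earlier clustering of these data, and they are given as a description. All 9 had a ratio above 0 and 5 were higher, against 47.8% and 1.87% of all genes considered. Their median was 1.01. Besides Upk1b and Itga4 the higher ones were Hpgd, which inactivates prostaglandins (1.72), the tetraspanin-like Tm4sf5 (1.19) and the peptide ligand Apela (1.01). Tm4sf5 reached 5 counts in 17 Aldh1a1-positive and 9 Aldh1a1-negative cells. Its ratio and Apela's were 0.82 and 0.74 among Upk3b-positive cells, and the tubulin Tubb3, the most abundant of the others, had 0.76 over all cells. At or above the median Lhx9 level (11 against 6 cells) the list's median was -0.015.

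Matrix and signalling lists had members on both sides. Of 23 fibroblast and matrix genes, 21 had enough signal (median 0.01). Of these 3 were higher and 3 lower, against 1.87% and 2.74% of all genes considered. The higher ones were Col4a1, Col6a1 (1.07, but 0.41 in thinned cells and 0.49 with Aldh1a1 at 10 or more counts) and the proteoglycan decorin (Dcn, 1.04). Dcn was at 115 ± 98.1 CPM in Aldh1a1-positive, 55.8 ± 61.7 CPM in Aldh1a1-negative and 5.29 CPM in the 40 remaining cells. The lower ones were Col5a1 (-1.09), Lama1 and the Notch-related ligand Dlk1, at 61.04 ± 62.9 CPM in Aldh1a1-positive and 178 ± 137 CPM in Aldh1a1-negative cells (-1.53). A second identifier that overlaps Dlk1 has the same counts, so its reads cannot be placed. The abundant members Vim, Sparc and Fn1 had ratios of 0.12, 0.14 and 0.10. Among Upk3b-positive cells Dcn (0.75) and Col5a1 (-0.84) no longer passed.

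Of 14 FGF genes 5 had enough signal, and 1 was lower, against 2.74% of all genes considered. This was the receptor Fgfr1, at 0 to 38.1 CPM (median 2.55) in Aldh1a1-positive and 0 to 113 CPM (median 25.6) in Aldh1a1-negative cells. In 7 Aldh1a1-negative cells it was above every Aldh1a1-positive cell, and its ratio was -1.77, or -1.47 among Upk3b-positive cells. The receptor Fgfr2, the ligand Fgf10 and the feedback phosphatase Dusp6 had 0.02, 0.02 and 0.34 (list median 0.02). Of 20 BMP and TGF-beta genes 14 had enough signal, and 1 (Bmp4) was lower, against 2.74% of all genes considered (list median -0.37). The abundant targets Id3, Id2 and Bambi had -0.55, 0.14 and -0.11.

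Of 16 guidance and chemokine genes 11 had enough signal, and 2 were lower, against 2.74% of all genes considered (median 0.34). These were the chemokine receptor Ackr3 (-1.16) and the Slit receptor Robo2 (-1.04). The semaphorin Sema3a, a repulsive cue, had a ratio of 0.82, and the abundant receptors Nrp1 and Plxna4 had 0.03 and 0.34. Robo2 had -0.70 among Upk3b-positive cells. Of 10 epithelial-to-mesenchymal transition genes 6 had enough signal, and 1 was lower, against 2.74% of all genes considered. This was the zinc-finger repressor Zeb1 (-1.03, or -0.63 among Upk3b-positive cells). Sox4, Cdh11 and Snai2, the most abundant, had 0.51, 0.08 and -0.26 (list median 0.00). Of 18 Wnt genes 12, and of 20 Hippo, Notch and hedgehog genes 16, had enough signal, and 0 passed 2-fold. Their medians were -0.16 and 0.03, and the Hippo co-activator Wwtr1 had the largest ratio of the second list at 0.99.

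No gene of the cell cycle, metabolic and stress lists passed 2-fold. All 17 S phase and all 17 mitosis genes had enough signal and their medians were -0.16 and -0.18. Of these ratios 4 of 17 and 2 of 17 were above 0, against 47.8% of all genes considered. The helicase subunits Mcm7 and Mcm2 had ratios of -0.16 and -0.01, and the mitotic genes Ccnb1 and Top2a -0.25 and -0.26. Of 18 glycolysis and hypoxia genes 17, of 12 dissociation stress genes 9 and of 9 mitochondrially encoded genes 9 had enough signal, with 0 past 2-fold. Their medians were -0.04, -0.20 and 0.18, and the most abundant of the first, Gapdh, had -0.09.

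**Figure D5:**
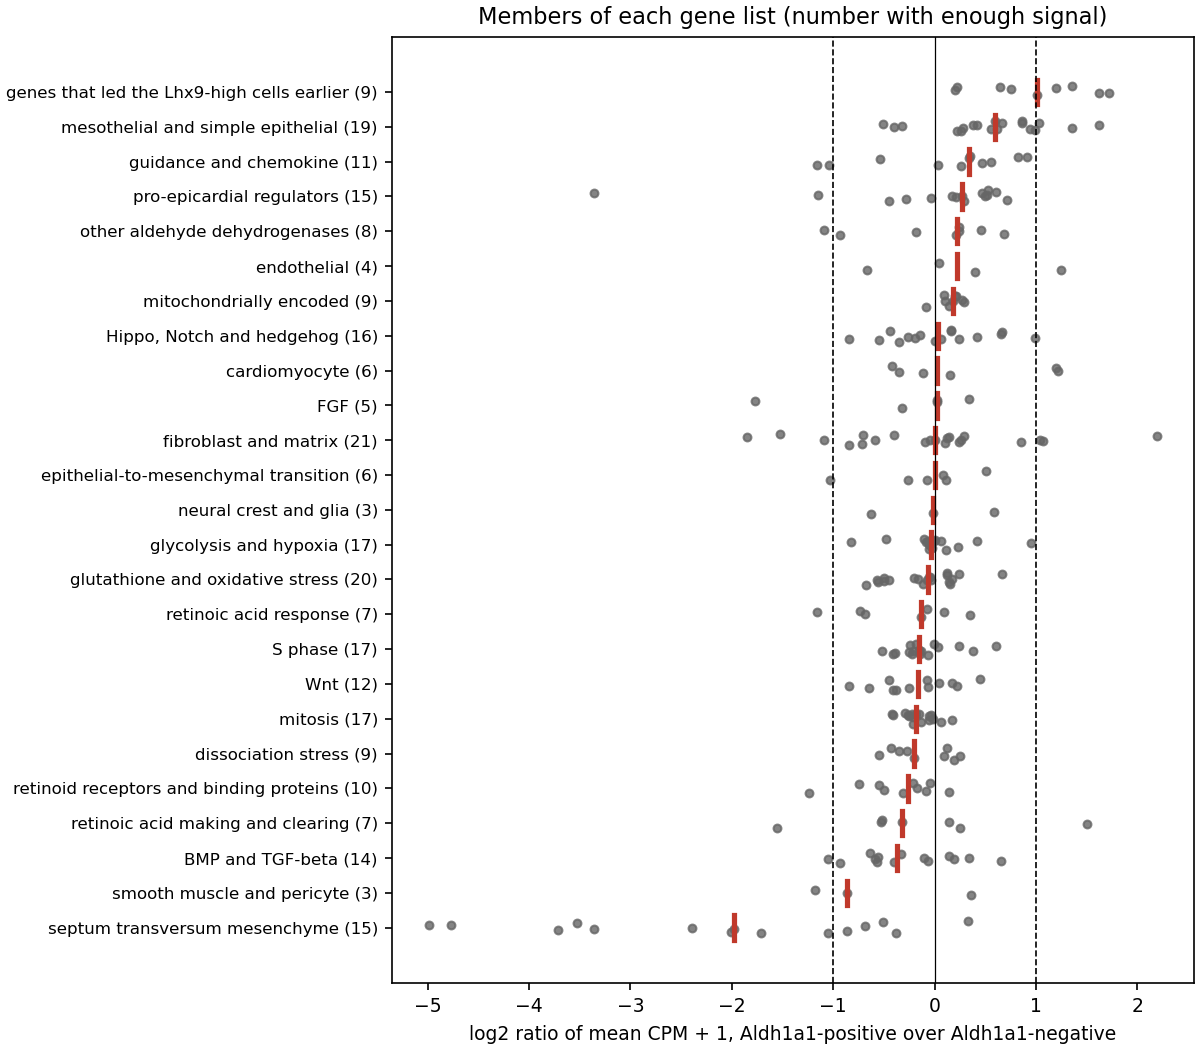
Log2 ratio of mean CPM + 1, Aldh1a1-positive over Aldh1a1-negative, for members of each gene list with enough signal (numbers in brackets; lists with at least 3). Red bars are list medians and dashed lines mark 2-fold; the septum transversum list has the lowest median (-1.98) and the earlier Lhx9-high genes the highest (1.01).

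Markers of other cell types were mostly sparse. Of 18 cardiomyocyte genes 6 had enough signal, with a median of 0.02. Of these 2 were higher and 0 lower, against 1.87% and 2.74% of all genes considered. The atrial light chain Myl7 was at 1023 ± 802 CPM in Aldh1a1-positive and 439 ± 469 CPM in Aldh1a1-negative cells (1.22, or 0.92 among Upk3b-positive cells), against 2380 CPM in the 40 remaining cells. The stress-responsive Ankrd1 had 1.20, or 0.96 among Upk3b-positive cells, and the troponin Tnni1 and light chain Myl4 had -0.11 and 0.16. Actc1 reached 5 counts in 12 Aldh1a1-positive and 5 Aldh1a1-negative cells (70.6%, interval 44.0% to 89.7%, and 29.4%, interval 10.3% to 56.0%). Its ratio of -0.35 came from the Aldh1a1-negative cell at 1866 CPM, and was 2.22 among Upk3b-positive cells. The summed CPM of the list was 1415 to 6674 in Aldh1a1-positive and 425 to 5997 in Aldh1a1-negative cells, and Nppa was at 0 in all 34. Any part of free or neighbouring muscle RNA in these values was not tested.

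Of 13 endothelial genes 4 had enough signal, and 1 was higher, against 1.87% of all genes considered. This was the VEGF receptor Flt1 (1.25, or 0.88 among Upk3b-positive cells), while Tek and Egfl7 had 0.04 and -0.67. Cdh5, Cldn5, Plvap and Sox17 were at 0 in all 34 cells. The summed CPM of the list was 43.8 to 371 in Aldh1a1-positive and 102 to 330 in Aldh1a1-negative cells. Of 10 smooth muscle and pericyte genes 3 had enough signal, and 1 was lower, against 2.74% of all genes considered. This was the actin Acta2 (-1.18, or -0.56 among Upk3b-positive cells). Tagln was at 0.36 and Des at -0.86, or -0.19 among Upk3b-positive cells. The list's summed CPM was 71.0 to 793 in Aldh1a1-positive and 58.5 to 1908 in Aldh1a1-negative cells, and Myh11 and Cspg4 were at 0. Of 8 neural crest and glia genes 3 had enough signal and 0 passed 2-fold, with Ednrb, Ets1 and Erbb3 at -0.63, -0.02 and 0.58 (median -0.02). Ednrb was at 0.0022 among Upk3b-positive cells.

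Of 9 erythroid genes 2 had enough signal, the alpha-globins Hba-a1 (-1.21) and Hba-a2 (-0.84), a near-identical pair whose reads can be exchanged. Both values came from 1 Aldh1a1-negative cell at 484 and 1050 CPM, and without each group's highest cell they were 0.31 and 0.61. Among Upk3b-positive cells they were 1.15 and 1.32. The summed CPM of the list was 0 to 417 in Aldh1a1-positive and 0 to 1551 in Aldh1a1-negative cells. Of 12 hepatoblast and foregut and 8 leukocyte genes 0 had enough signal. Afp, Foxa2, Hnf4a, Fcer1g, Tyrobp and Laptm5 were at 0, and the summed CPM of the lists was at most 71.6 and 22.4 in Aldh1a1-positive and 185 and 45.0 in Aldh1a1-negative cells.

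Across the 34 cells the genes considered whose levels followed Aldh1a1 most closely were Gm10131, Actn3, Mbp, Arf4 and Upk1b, with Spearman correlations of 0.72, 0.67, 0.63, 0.63 and 0.63. Aldh1a1 also formed the groups, so these values restate the division and support nothing. They describe 34 cells of 1 sample, 16 of which share a value of 0 for Aldh1a1. The predicted gene Gm10131 and the vesicle-traffic GTPase Arf4 were found in all 34 cells and had ratios of 0.49 and 0.31, so a close order went with less than a 2-fold difference.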

How the data were processed

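RNA of 74 single cells was measured after SMART-Seq v4 amplification and Nextera XT libraries. The deposited table holds the authors' estimated counts by gene, made with kallisto (version not given in the sources used here) per the submitters' processing notes. The notes name the human build hg38, while every identifier is a mouse Ensembl identifier. Symbols were taken from the annotation GENCODE M21, built on GRCm38. Of 30323 identifiers 29857 matched, and the 466 others held 0.357% of counts. The estimated counts were rounded to whole numbers before use.

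From these counts CPM were computed over all genes in each cell. Cells with at least 5 counts of Lhx9 were divided at 5 counts of Aldh1a1. The members, the 28 gene lists and the divisions were chosen with earlier results of these data known. The labels name no embryo, so the cells are 1 sample. No count model, test or p-value was used, although the values are counts. The error given is the SD between cells, or for a share of cells its Clopper-Pearson (exact) 95% interval. No doublet caller was run on the singly sorted cells, and 0 cells were left out.

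Genes were considered at a mean of 10 CPM or more and 5 counts in at least 10% of the 34 cells. Ratios are of means on the log2 scale with a pseudocount of 1 CPM, which understates low genes. The genes named are the 15 largest and 15 smallest ratios, by the limits given above, all retinoid, aldehyde dehydrogenase and regulator genes, the 3 most abundant and all 2-fold members of other lists, and 5 genes by Spearman correlation with Aldh1a1. Other list members named, among them Lrrn4, Krt8, Krt18, Wwtr1, Sema3a and Actc1, were chosen after their values were seen, and some genes the rule covers are given only in counts or are not reported here. Alternatives changed the thresholds of Lhx9 and Aldh1a1, the depth, the scaling, the pseudocount, the average, the filter and the cells. The calculation was also run on simulated counts with known fold changes planted, and the outcome is not reported here. It ran in Python 3.11.15 with SciPy 1.17.1, numpy 2.4.6, matplotlib 3.10.9 and pandas 2.3.3.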

Additional observations from a re-analysis of the deposited data

Results flagged for a closer look

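Aldh1a1 was found in 3 cells with 0 counts of Lhx9, which belong to neither group. It had 18 counts in cell P1-19, 24 in cell P1-32 and 23 in cell P1-35, or 27.3, 19.8 and 26.4 CPM. Cell P1-19 had Tbx18 at 165 CPM, the sarcomeric actin Actc1 at 1405 CPM and 0 counts of Wt1, Upk3b, Upk1b and Podxl. Cell P1-32 had Tcf21 at 429 CPM, Podxl at 116 CPM and Upk1b at 77.4 CPM, with Wt1 at 9.88 CPM. Cell P1-35 had Actc1 at 12474 CPM, the heart field factor Isl1 at 295 CPM, Podxl at 286 CPM and Upk3b at 125 CPM.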

How the results depend on the processing

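No paired analysis was possible because the labels give 1 group of cells and no pairing. The count of higher genes was 162 and of lower genes 237, with 40.6% of them higher. Lower genes numbered 379 with Lhx9 at 1 or more counts. A pseudocount of 10 CPM gave 54 higher and 59 lower, the mean of log2(CPM + 1) 500 and 386 (56.4% higher), and no filter 827 and 1142. At or above the median Lhx9 level (11 against 6 cells) 424 were higher, and 277 without cells with 5 or more counts of Lhx2 (15 against 10, chosen after seeing the data). Median-of-ratios size factors gave 38.97% higher. Among Upk3b-positive cells 180 were higher and 170 lower, of which 103 and 118 were shared with the main division. Thinned cells gave 194 and 352, with 82 and 139 shared, after cells under 350000 counts were left out and the rest regrouped (11 against 17 cells). The septum transversum median was -0.51 among Upk3b-positive cells and -0.45 at or above the median Lhx9 level, over the members past the filter there. At that level 7 of the 11 leading lower genes with a value and 14 of the 15 leading higher genes stayed at 2-fold. Lhx9 at 10 or more counts left every cell and call as it was.

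Called values that changed sign were few, and the cause was not tested. With Lhx9 at 1 or more counts Cyp1b1 was -0.42, Myl7 -0.22, Ankrd1 -4.31 and Col6a1 -0.15. Thinned, Irx3 was -0.82. On the mean of log2(CPM + 1) Aldh1a2 was 0.088, Cyp1b1 -0.14, Rbp4 0.64, Hba-a1 0.62 and the erythroid median 0.45. Without the highest cells Rbp4 was 1.13, Hba-a1 0.31 and the erythroid median 0.46. Among Upk3b-positive cells Hba-a1 was 1.15 and the erythroid median 1.24. At or above the median Lhx9 level the erythroid median was 1.46, Tnc 2.70, Aldh1a2 2.60, Hoxb2 0.71, Gata5 0.37, Acta2 0.078, Ankrd1 -0.081, Tm4sf5 -0.13 and the earlier Lhx9-high median -0.015. Without cells with Lhx2, Hba-a1 was 0.75 and the erythroid median 0.91. Uncalled values that passed 2-fold with the opposite sign were 9. With Lhx9 at 1 or more counts the cardiomyocyte median was -3.38, Myl4 -1.29 and Tagln -1.69. Thinned, Nr2f1 was 1.06, Scx -1.03 and Erbb3 -2.33. Hba-a2 was 1.32, 1.46 and 1.06 among Upk3b-positive cells, at or above the median Lhx9 level and without cells with Lhx2. Of the remaining comparisons with alternatives, 2528 were unchanged in call, 120 lost a call and 41 gained one. The 2528 include values under 2-fold both in the main division and in the alternative, which had no call to keep. They therefore do not show how often calls survived. In the shallowest of the 34 cells, with 216177 counts, a gene needs more CPM to reach 5 counts than in deeper ones, so low genes were less detectable there.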
